A study of Mus musculus with 6 samples.

Results

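The respiratory chain genes described here are the subunits of complexes I to V of mitochondrial oxidative phosphorylation together with cytochrome c. They were taken from a table of 39179 mouse genes by symbol: names starting with Nduf, Sdha to Sdhd, Uqcr, Cyc1, Cycs, the Cox4 to Cox8 subunits and Atp5, and the mitochondrial names mt-Nd, mt-Co, mt-Atp and mt-Cytb. Assembly factors and 7 pseudogenes with -ps in the symbol were dropped, and at least 30 counts summed over the 6 libraries were required. The names gave 104 genes, of which 94 had enough counts: 82 nuclear-encoded and 12 mitochondrial-encoded. Complex I held 42 of them (36 nuclear and 6 mitochondrial), complex II 4, complex III 10 (9 nuclear and 1 mitochondrial), complex IV 18 (15 nuclear and 3 mitochondrial) and complex V 19 (17 nuclear and 2 mitochondrial), with Cycs as the single cytochrome c gene. Ndufa4, named after complex I but now assigned to complex IV, was counted with complex IV, and Atp5s and Atp5mpl, which are less established parts of complex V, entered by name. Just inside the minimum, Cox6a2 had 45 counts. Just outside it, Cox8b had 28 and Ndufa4l2 had 22, while 4 of the 10 genes left out (Cox4i2, Cox7b2, Cox8c and Ndufb4c) had none, and Cox6c2, Ndufs6b, Ndufa11b and mt-Nd4l had 1 or 2. Of those left out, Ndufb4c, Cox6c2, Ndufs6b and Ndufa11b are annotated as processed pseudogenes, although their symbols do not show it. The rule did not use any difference between groups.

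RNA was sequenced from neural progenitor cells, the precursors of cortical neurons and glia, taken from the cortex of CD1 mice on E13.5 of gestation and then differentiated. In 3 libraries, called G392E-NS, the cells stably overexpressed neuroserpin, a serine protease inhibitor of neurons, with the G392E change, a variant that polymerises in the endoplasmic reticulum and causes the inherited dementia FENIB. In the 3 reference libraries, called GFP, the cells stably overexpressed green fluorescent protein. The series concerns oxidative stress, and the respiratory chain is a major cellular source of oxidants. Both groups carried an introduced transgene, and the promoter that drives it, whether each line was a clone or a pool, and whether replicates were separate cultures are not stated in the labels, so the p-values measure the spread between these libraries. Wild-type neuroserpin was not analysed here, and a difference is of G392E-NS cells against GFP cells.

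The chain carries electrons from NADH through complex I, and from succinate through complex II, to ubiquinone, then through complex III and cytochrome c to complex IV, which reduces oxygen. Complexes I, III and IV pump protons, and complex V, the ATP synthase, uses the resulting gradient to make ATP. Complexes I, III, IV and V combine subunits from both genomes: the mitochondrial DNA encodes core membrane subunits, transcribed as long polycistronic RNAs inside the organelle, whereas the many other subunits are transcribed in the nucleus and imported. Differentiating neurons and astrocytes depend on this chain for ATP to differing degrees.

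The libraries held 15507487 counts (G392E-NS replicate 3) to 24835835 counts (G392E-NS replicate 2), and levels below are CPM, each library's counts scaled to a common total with TMM factors. All 6 neural progenitor markers were detected, with a summed level of 3781 to 4812 CPM in G392E-NS and 4035 to 4645 CPM in GFP, and 1 of the 6 was lower: Nes, the intermediate filament nestin, averaged 278.3 ± 66.4 CPM in G392E-NS and 474.2 ± 55.8 CPM in GFP (SD, n = 3 each, log2 fold change -0.77, adjusted p = 0.0480 by edgeR). Of the 6, 3 had a log2 fold change above 0. Over all genes tested, 1.36% fell and 4.79% rose at an adjusted p under 0.05 by edgeR, shares that apply to every marker list here. The 7 neuronal markers summed to 3019 to 4179 CPM in G392E-NS and 3237 to 3726 CPM in GFP. The sum of 7 astrocyte markers was 7075 to 11350 CPM in G392E-NS and 3120 to 4449 CPM in GFP, with no overlap, and 3 of the 7 (Slc1a2, Aldoc and Aldh1l1) rose. Log2 fold changes were above 0 for 6 of the 7, the exception being Aqp4 (-0.14), named after its values were seen. The 6 oligodendrocyte-lineage markers summed to 2732 to 4995 CPM in G392E-NS and 3181 to 3861 CPM in GFP, with 1 of 6 (Pdgfra) higher. The 5 microglial markers summed to at most 0.326 CPM in G392E-NS and 0.351 CPM in GFP, with Csf1r at 0 in every library. Endothelial markers summed to 0.587 to 1.19 CPM in G392E-NS and 1.04 to 1.10 CPM in GFP (Cdh5 and Cldn5 at 0), mesenchymal ones to 1.87 to 3.69 CPM in G392E-NS and 0.0502 to 0.214 CPM in GFP (Lum and Dcn at 0, 1 of 7, Twist1, higher), and striated muscle ones to 1.79 to 2.87 CPM in G392E-NS and 2.13 to 3.34 CPM in GFP (Ckm at 0). The part of these marker differences in the results below was not tested. In such bulk samples, a change in the share of cells of a type and a change in RNA per cell cannot be told apart.

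Of the 94 genes, 93 passed the filter on low counts, and 10 of these 93 (10.8%) rose in G392E-NS at an adjusted p under 0.05 by edgeR's quasi-likelihood test over all genes, against 4.79% of the 13775 genes tested. None fell, against 1.36% of all genes, and 6.15% of all genes changed in either direction. The 10 were Cox5a, Cox5b, Cox6a1, Cox6b2 and Cox8a of complex IV, Ndufs1, Ndufs3 and Ndufa10 of complex I, Uqcrfs1 of complex III and Atp5d of complex V. All 10 are nuclear genes, and no mitochondrial-encoded gene passed. The log2 fold change (G392E-NS over GFP) was above 0 for 83 of 93 genes (89.2%), against 49.3% of all genes, and its median was 0.20, against 0.00 over all genes. The libraries of the groups did not overlap for 21 genes that were higher in G392E-NS (22.6%, against 15.7% of all genes) and for 2 that were lower, Ndufb2 and Ndufb5 (against 12.9% of all genes).

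The shift of the nuclear genes rested largely on 1 library. Over the 81 nuclear genes tested, the median log2 difference from the GFP mean was -0.03, 0.15 and 0.42 in G392E-NS replicates 1, 2 and 3, against -0.06, 0.01 and 0.05 in GFP replicates 1, 2 and 3. G392E-NS replicate 3 held the highest of the 6 values for 66 of the 81 (81.5%), against 20.2% of all genes. Without that library the median over all subunits was 0.06 and the nuclear median 0.04, with 51 of 82 nuclear genes above 0 against 49.5% of all genes. The pattern varied with transcript length and with GC content. Across the 81 genes, the excess of G392E-NS replicate 3 over the mean of replicates 1 and 2 had a Pearson r of -0.52 and a Spearman rho of -0.49 with the log2 length of the principal transcript, a description over genes measured in the same libraries. With the GC percent of the longest transcript, this excess had a Pearson r of 0.37 and a Spearman rho of 0.41. The log2 fold change of G392E-NS over GFP had a Pearson r of -0.08 and a Spearman rho of 0.10 with log2 length. With GC percent, these were 0.23 and 0.37. The nuclear subunits have short transcripts, with a median of 863 bases against 3151 over all genes tested. Among the 353 other genes with a principal transcript of up to 863 bases, 50.1% were also highest in G392E-NS replicate 3, the median log2 fold change was 0.08, and 64.0% lay above 0. Of these 353, 4.53% rose at an adjusted p under 0.05 by edgeR, against 4.79% of all genes. A further fit took out trends over GC content and over the merged length of all exons of a gene. That length is not the principal transcript length used above, so the dependence on the latter may remain in part. In this fit the nuclear median was 0.06 against -0.06 over all genes. There, 49 of 81 nuclear genes lay above 0, against 40.3% of all genes. The same fit called 9 subunits higher, including 5 of complex IV, against 663 of the 13775 genes tested.

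**Figure D1:**
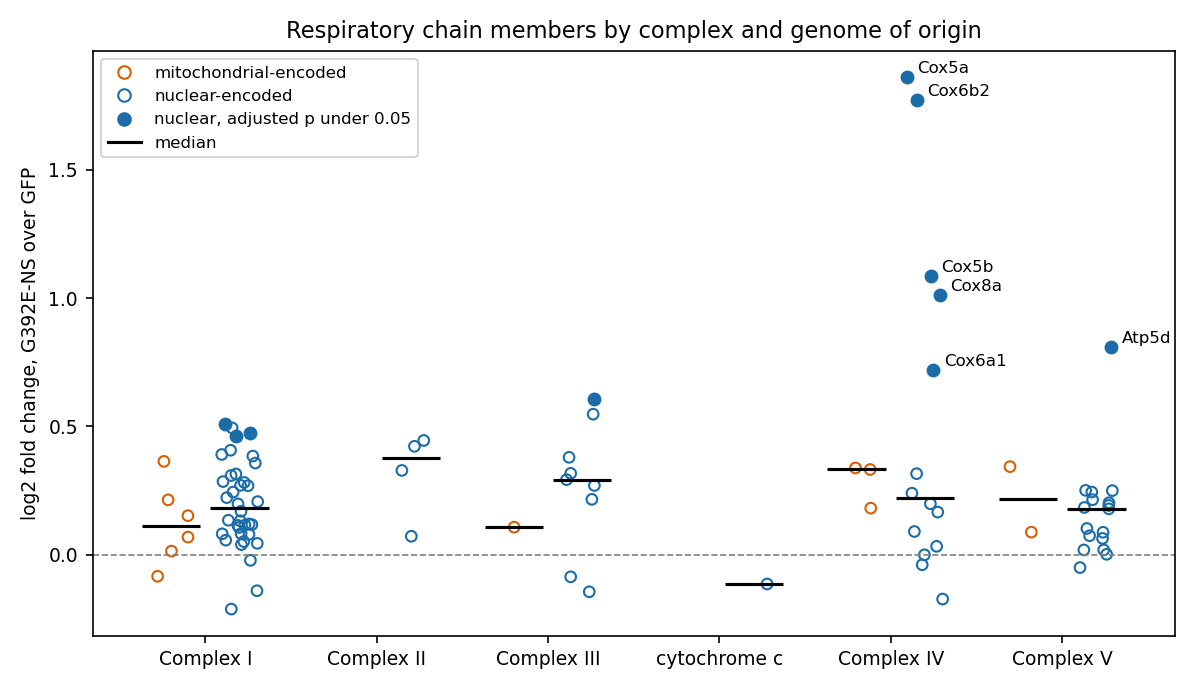
Log2 fold change (G392E-NS over GFP) of each tested subunit on the vertical axis, by complex and genome of origin, with genes past an adjusted p of 0.05 marked and the median of each group drawn. Most points lie above 0 in each of complexes I to V, while Cycs lies below 0, and the 5 marked genes of complex IV include the largest fold changes, Cox5a and Cox6b2.

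**Figure D2:**
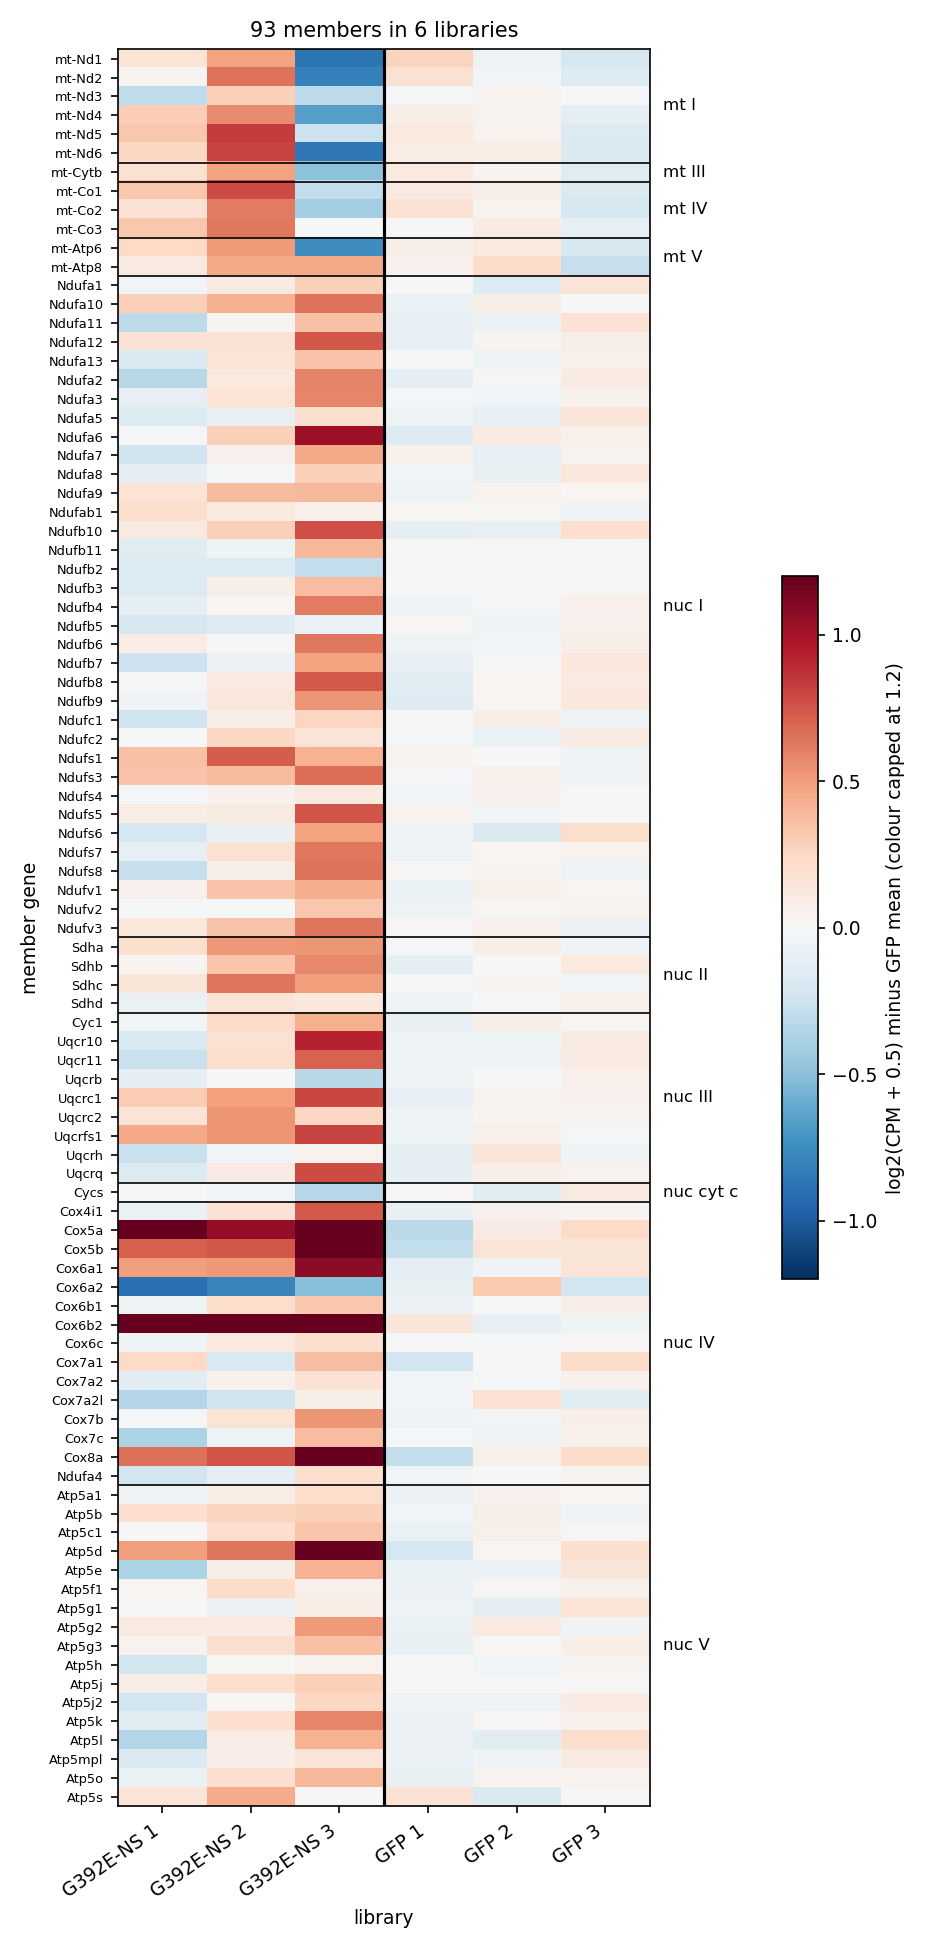
Log2 difference of 93 subunits from the GFP mean, with the 3 G392E-NS libraries left of the 3 GFP libraries and genes ordered by complex. In G392E-NS replicate 3 the nuclear genes are mostly high (median 0.42) and the mitochondrial genes mostly low (median -0.45), while in replicate 2 the mitochondrial genes are high (median 0.60).

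Complex IV, cytochrome c oxidase, had the largest share of called genes: 5 of its 17 tested genes rose (29.4%), against 4.79% of all genes. All 5 were among the 14 nuclear ones, and 1 remained called when any single GFP library was left out. Leaving out GFP replicate 1, 2 or 3 also lowered the higher calls over all genes, from 660 to 196, 207 or 382. Cox5a, a subunit on the matrix side of the enzyme, had 35.7, 26.4 and 76.8 CPM in G392E-NS replicates 1, 2 and 3, against 9.85, 13.4 and 14.7 CPM in GFP. Every G392E-NS library lay above every GFP library, with replicate 3 far above the others. The means were 46.3 ± 26.8 CPM in G392E-NS and 12.7 ± 2.52 CPM in GFP (SD, n = 3 each), a difference of 1.86 on the log2 scale (SE 0.38, adjusted p = 0.0289 by edgeR), or 3.63-fold. Without G392E-NS replicate 3 the log2 fold change of Cox5a was 1.29 (adjusted p = 0.0248). Its 5′ end overlaps a non-coding RNA, Gm26631, on the opposite strand, and since the strand setting of the counting is not given, reads of the pair cannot be told apart.

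Cox5b, a zinc-binding subunit of the matrix side, had 56.6, 57.8 and 106.8 CPM in G392E-NS, against 27.9, 38.1 and 37.8 CPM in GFP. The groups did not overlap, and the difference was 1.09 on the log2 scale (SE 0.26, adjusted p = 0.0475). Cox8a, a small subunit that spans the membrane, had 136.4, 145.5 and 244.6 CPM in G392E-NS, against 70.6, 89.9 and 100.4 CPM in GFP. Again all 3 G392E-NS libraries were higher, with a difference of 1.01 on the log2 scale (SE 0.23, adjusted p = 0.0444). Cox6a1, the widely expressed form of subunit VIa, had 147.9, 149.6 and 218.9 CPM in G392E-NS, against 95.7, 101.2 and 116.3 CPM in GFP. Its groups were apart as well, with a difference of 0.72 on the log2 scale (SE 0.17, adjusted p = 0.0436). Without G392E-NS replicate 3, which was the highest library for all 3, the log2 fold changes were 0.72 for Cox5b, 0.69 for Cox8a and 0.51 for Cox6a1, with adjusted p of 0.0487, 0.0533 and 0.0464.

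Cox6b2, the form of subunit VIb known mainly from testis, was scarce but showed the smallest p in the chain. It had 2.45, 2.33 and 2.74 CPM in G392E-NS, against 0.864, 0.652 and 0.684 CPM in GFP, from 59, 55 and 42 counts in G392E-NS and 15, 13 and 16 in GFP. The 3 libraries of each group lay close together and far from the other group. The means were 2.51 ± 0.209 CPM in G392E-NS and 0.734 ± 0.114 CPM in GFP (SD, n = 3 each), a difference of 1.77 on the log2 scale (SE 0.24, adjusted p = 0.00614), or 3.41-fold. Its widely expressed counterpart Cox6b1 had 188.3, 224.8 and 243.1 CPM in G392E-NS, against 184.7, 194.0 and 205.6 CPM in GFP, with overlapping groups and a difference of 0.17 on the log2 scale (SE 0.11, adjusted p = 0.428). Cox6b2 therefore made up 1.14 ± 0.132% of the counts of the pair in G392E-NS and 0.378 ± 0.0763% in GFP, with no overlap (exact permutation p = 0.1 two-sided, the smallest that 3 against 3 allows).

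The other isoform pairs of complex IV gave a different picture. Cox6a2, the form of subunit VIa known from heart and skeletal muscle, had 2, 3 and 4 counts in G392E-NS, against 9, 17 and 10 in GFP, all G392E-NS libraries below all GFP libraries. It was too low for the filter and was not tested in the main analysis. With no filter on low counts its log2 fold change was -2.01 (SE 0.57, adjusted p = 0.0329 by edgeR), and it was then the only subunit called lower. It was also tested with each single library left out, and passed in none of these fits (adjusted p of 0.0682 to 0.232 by edgeR). Cox7a1, another muscle form, had 0.915, 0.551 and 1.04 CPM in G392E-NS, against 0.518, 0.703 and 0.898 CPM in GFP. Its groups overlapped, as did those of Cox7a2 (65.7, 74.8 and 81.3 CPM in G392E-NS, against 70.5, 71.4 and 74.6 CPM in GFP) and of Cox7a2l, which joins complexes III and IV into supercomplexes (156.5, 169.3 and 210.0 CPM in G392E-NS, against 196.2, 226.2 and 180.9 CPM in GFP). Of the remaining forms, Cox4i1 had 366.5, 437.5 and 642.9 CPM in G392E-NS, against 364.2, 400.6 and 396.7 CPM in GFP, with overlapping groups, and its counterpart Cox4i2 had no counts. Cox7b had a log2 fold change of 0.24 (SE 0.14) and Ndufa4 of -0.04 (SE 0.12), neither past the test.

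**Figure D3:**
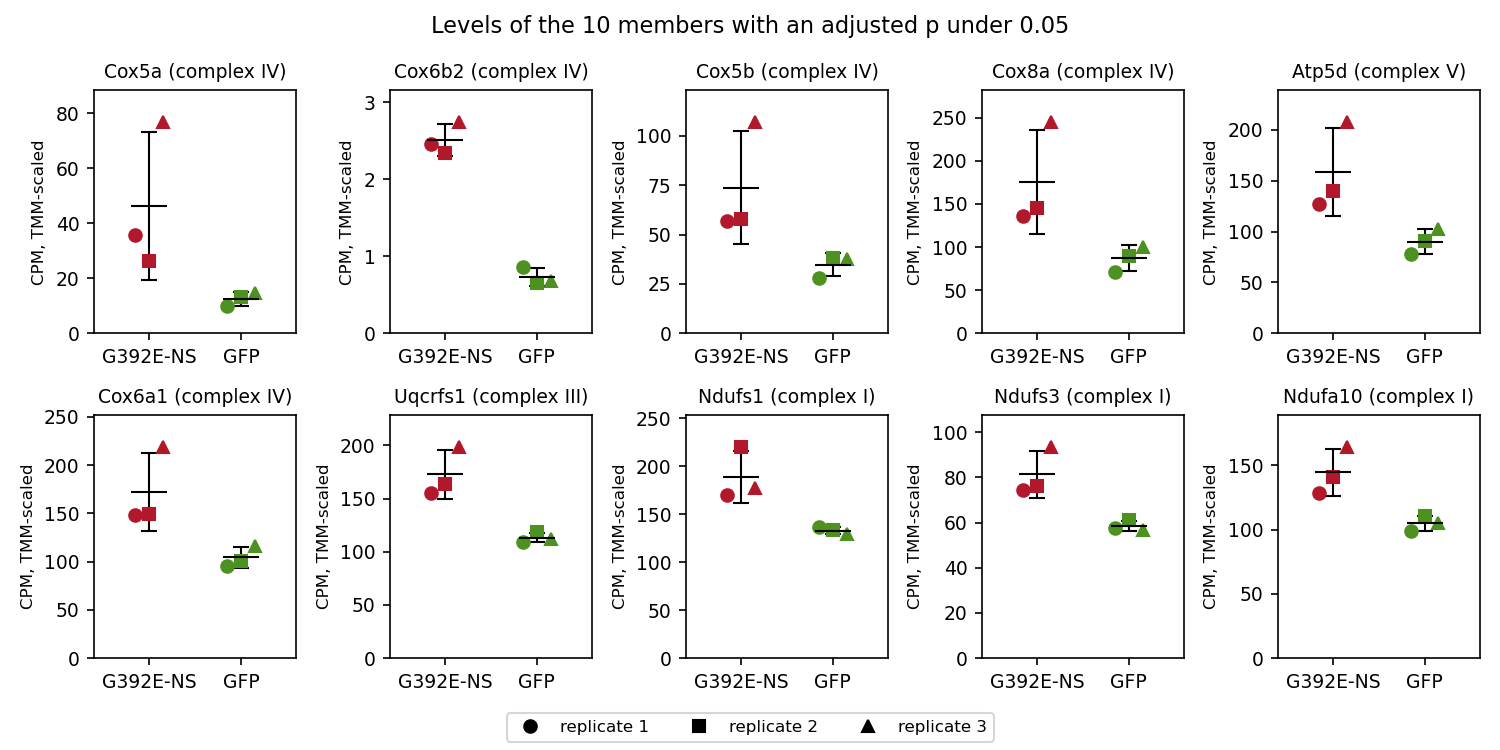
Level in CPM of each of the 10 subunits that passed the test, with the 3 G392E-NS libraries left and the 3 GFP libraries right in each panel, points for libraries and bars for mean and SD. In every panel the lowest G392E-NS library lies above the highest GFP library, and G392E-NS replicate 3 stands highest in 9 of 10, the exception being Ndufs1.

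On a scale that allows levels of different genes to be compared, CPM per kilobase of principal transcript, Cox5a stood at 71.8 in G392E-NS and 19.6 in GFP, and Cox5b at 85.2 in G392E-NS and 39.99 in GFP. In GFP these were the lowest levels per kilobase among the nuclear complex IV subunits other than the scarce isoforms Cox6a2, Cox6b2 and Cox7a1. In G392E-NS, Cox7c, named after its values were seen, was below both, at 54.5 CPM per kilobase, against 54.3 in GFP. The highest level per kilobase among nuclear complex IV subunits was that of Cox4i1, at 630.4 in G392E-NS and 506.1 in GFP.

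The promoters of 3 of the 5 complex IV genes that rose are shown as examples, since all 5 moved in the same direction. Those of Cox5b and Cox6b2 are not printed. Of the 5, only the promoter of Cox6a1 held a match to the motifs searched, and those of Cox5a, Cox5b, Cox6b2 and Cox8a held none. The sequences, from RefSeq on GRCm38.p6, cover the bases before each gene's start that lie outside its GENCODE gene span. They are Cox5a (chr9:57520982-57521231, plus strand), Cox8a (chr19:7217617-7217866, minus strand) and Cox6a1 (chr5:115348982-115349208, minus strand). Capitals mark matches, on either strand, to the 10-base motif of nuclear respiratory factor 1 (NRF1).
Cox5a: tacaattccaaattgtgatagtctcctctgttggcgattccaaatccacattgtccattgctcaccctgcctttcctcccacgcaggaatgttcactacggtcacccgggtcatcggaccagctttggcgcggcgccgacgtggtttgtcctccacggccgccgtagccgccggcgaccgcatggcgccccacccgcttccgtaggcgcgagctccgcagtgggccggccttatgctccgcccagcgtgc
Cox8a: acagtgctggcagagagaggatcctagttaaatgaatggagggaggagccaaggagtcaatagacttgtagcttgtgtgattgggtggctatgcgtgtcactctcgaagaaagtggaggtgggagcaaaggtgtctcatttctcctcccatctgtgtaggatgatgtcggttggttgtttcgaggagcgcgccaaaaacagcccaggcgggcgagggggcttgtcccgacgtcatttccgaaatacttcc
Cox6a1: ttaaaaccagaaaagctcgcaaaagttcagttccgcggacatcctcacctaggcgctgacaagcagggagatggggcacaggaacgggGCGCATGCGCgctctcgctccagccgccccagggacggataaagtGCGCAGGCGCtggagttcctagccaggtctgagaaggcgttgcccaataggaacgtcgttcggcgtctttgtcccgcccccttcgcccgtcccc
Over the 250 bases before the RefSeq start, promoters were found for 66 of the 82 nuclear genes (71 windows). The NRF1 motif stood in 19.7% of the 71 windows and in 3.74% of the 32851 windows of all genes. Each motif was searched on both strands, and none of the matches in the windows of called genes overlapped another. The ETS motif CCGGAAG, which the NRF2/GABP factor binds, stood in 16.9% of the subunit windows and 6.91% of all windows, the cAMP response element TGACGTCA in 7.04% and 1.55%, and the YY1 motif in 0 of 71 and 0.347%. Among the 10 windows of the 9 called genes with a promoter, the NRF1 motif was found in 1, ETS in 2 and the cAMP response element in 2. Among the 61 windows of the other 57 nuclear genes they were found in 13, 10 and 3.

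In complex I, the NADH dehydrogenase, 3 of 36 nuclear genes rose (8.33%, against 4.79% of all genes). The median log2 fold change of the 36 was 0.18, but 0.04 with G392E-NS replicate 3 left out and 0.33 with G392E-NS replicate 1 left out. Ndufs1, the largest subunit, which carries iron-sulfur clusters of the matrix arm, had 170.2, 220.3 and 177.4 CPM in G392E-NS, against 136.6, 133.2 and 129.4 CPM in GFP. Here replicate 2 and not replicate 3 was the highest library, and the groups did not overlap. The log2 fold change of Ndufs1 was 0.51 (SE 0.11, adjusted p = 0.0406), or 1.42-fold. Ndufs3, a core subunit of the matrix arm, had 74.3, 76.1 and 93.5 CPM in G392E-NS, against 57.8, 61.0 and 56.6 CPM in GFP. All G392E-NS libraries were higher, with a difference of 0.47 on the log2 scale (SE 0.11, adjusted p = 0.0441). Ndufa10, an accessory subunit of the membrane arm, had 128.1, 141.3 and 164.3 CPM in G392E-NS, against 99.1, 110.2 and 105.0 CPM in GFP. Its groups were apart too, with a difference of 0.46 on the log2 scale (SE 0.11, adjusted p = 0.0484). Ndufs1 and Ndufs3 each overlap neighbouring genes on the opposite strand at an end, so some of their reads may belong to those.

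The other 33 nuclear genes of complex I did not pass. The 2 of 36 genes whose G392E-NS libraries all lay below GFP (against 12.9% of all genes), named after their values were seen, were the accessory membrane subunits Ndufb2 and Ndufb5. Ndufb2 averaged 19.2 ± 1.04 CPM in G392E-NS and 22.2 ± 0.276 CPM in GFP (SD, n = 3 each), a difference of -0.21 on the log2 scale (SE 0.10, adjusted p = 0.269). Ndufb5 had 66.2, 67.7 and 72.2 CPM in G392E-NS, against 76.4, 72.2 and 78.3 CPM in GFP, a difference of -0.14 on the log2 scale (SE 0.08, adjusted p = 0.368). Neither difference passed the test. In the nuclear genes of complex I, 31 of 36 were highest in G392E-NS replicate 3.

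Complex II, succinate dehydrogenase, is the only complex with no mitochondrial-encoded subunit and is also an enzyme of the citric acid cycle. None of its 4 genes passed the test, yet all 4 log2 fold changes were above 0, with a median of 0.38. Sdha, the flavoprotein subunit, had 371.2, 465.2 and 467.8 CPM in G392E-NS, against 318.7, 339.3 and 314.9 CPM in GFP. The groups did not overlap, and the difference was 0.42 on the log2 scale (SE 0.12, adjusted p = 0.0779). Sdhc, a membrane anchor named after its values were seen, was also apart, with a difference of 0.45 on the log2 scale (SE 0.13, adjusted p = 0.0881). The summed counts of the 4 genes made up 0.0745%, 0.0906% and 0.0943% of all counts in G392E-NS, against 0.0689%, 0.0720% and 0.0702% in GFP. All 3 G392E-NS shares were the higher, at an exact two-sided permutation p of 0.1, the smallest this design allows.

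In complex III, the cytochrome bc1 complex, 1 of 9 nuclear genes rose (11.1%, against 4.79% of all genes). Uqcrfs1, the Rieske iron-sulfur protein that passes electrons to cytochrome c1, had 155.2, 164.1 and 198.5 CPM in G392E-NS, against 109.4, 118.3 and 112.1 CPM in GFP. The groups were well apart, and the difference was 0.61 on the log2 scale (SE 0.11, adjusted p = 0.0194), or 1.52-fold. Uqcrc1, a core subunit on the matrix side named after its values were seen, had a log2 fold change of 0.55 (SE 0.13) at an adjusted p of 0.0515. Uqcrh, the hinge protein that docks cytochrome c and the nuclear gene of the complex with the highest level per kilobase, had 149.5, 175.5 and 185.4 CPM in G392E-NS, against 167.3, 200.2 and 173.8 CPM in GFP, with overlapping groups. The median over the 9 nuclear genes was 0.29, but 0.01 when G392E-NS replicate 3 was left out and 0.47 when G392E-NS replicate 1 was. Cycs, cytochrome c itself, had 31.6, 30.6 and 24.5 CPM in G392E-NS, against 31.6, 28.6 and 33.6 CPM in GFP, overlapping, with a difference of -0.11 on the log2 scale (SE 0.13, adjusted p = 0.643).

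In complex V, 1 of 17 nuclear genes rose (5.88%, against 4.79% of all genes). The median log2 fold change of the 17 was 0.18, but 0.06 with G392E-NS replicate 3 left out and 0.09 with G392E-NS replicate 2 left out. Atp5d, the delta subunit of the rotating stalk, had 127.3, 139.6 and 207.3 CPM in G392E-NS, against 77.5, 90.8 and 102.1 CPM in GFP. The groups did not overlap and replicate 3 was highest, with a difference of 0.81 on the log2 scale (SE 0.19, adjusted p = 0.0479), and 0.57 (adjusted p = 0.0609) without that replicate. It overlaps Cbarp on the opposite strand at an end. Atp5b, the catalytic beta subunit, had 1298, 1356 and 1378 CPM in G392E-NS, against 1105, 1184 and 1100 CPM in GFP. These groups were also apart, but by 1.19-fold and not past the test (log2 fold change 0.25, SE 0.11, adjusted p = 0.224).

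The 3 genes for subunit c, which forms the rotor ring, encode the same mature protein and differ in the import sequence. Atp5g3 had 222.6, 247.2 and 276.0 CPM in G392E-NS, against 202.9, 218.3 and 226.4 CPM in GFP. Atp5g2 had 44.6, 44.3 and 59.3 CPM in G392E-NS, against 39.2, 45.0 and 40.1 CPM in GFP, and Atp5g1 had 19.1, 18.2 and 20.3 CPM in G392E-NS, against 18.3, 17.7 and 21.4 CPM in GFP. All 3 had overlapping groups and did not pass, with log2 fold changes of 0.20 (SE 0.11), 0.25 (SE 0.14) and 0.00 (SE 0.12). Per kilobase the mean over all 6 libraries was 321.2 CPM for Atp5g3, 62.1 CPM for Atp5g2 and 4.06 CPM for Atp5g1, the last resting on an annotated principal transcript of 4715 bases. Reads from the shared coding part may be assigned to any of the 3 genes or to pseudogene copies, so the split among them is uncertain.

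Of the 9 called genes other than Cox6b2, none kept an adjusted p under 0.05 when any single GFP library was left out. By edgeR, their adjusted p was 0.106 to 0.199 without GFP replicate 1, 0.0754 to 0.154 without replicate 2 and 0.0641 to 0.112 without replicate 3, with log2 fold changes above 0 in every case. Over all genes, the 660 higher calls fell as well, to 196, 207 and 382 without GFP replicates 1, 2 and 3. Without G392E-NS replicate 2 or 3, 5 subunits remained called: Uqcrfs1, Cox5a, Cox5b, Cox6a1 and Cox6b2. These 2 fits called 428 and 457 genes higher over all genes. Without G392E-NS replicate 1, 14 subunits were called, against 981 of the 13928 genes tested in that fit. Cox6b2 passed in all 16 alternative analyses, Cox5a and Uqcrfs1 in 12 of 16, Cox6a1 in 11 and Ndufs1 in 10. Cox5b and Cox8a passed in 9 of 16, Atp5d and Ndufs3 in 8 and Ndufa10 in 7.

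The mitochondrial-encoded subunits are membrane subunits of complexes I, III, IV and V. None of the 12 passed the test, although 11 had a log2 fold change above 0 (median 0.17). They varied much more among the G392E-NS libraries than among the GFP libraries. Over the 12 genes, the median log2 difference from the GFP mean was 0.21, 0.60 and -0.45 in G392E-NS replicates 1, 2 and 3, against 0.10, 0.04 and -0.17 in GFP replicates 1, 2 and 3. G392E-NS replicate 2 held the highest value for 12 of 12 genes. G392E-NS replicate 3 held the lowest for 10 of 12, the exceptions being mt-Co3 and mt-Atp8. The direction therefore rested on the choice of library: the median was -0.11, with 4 of 12 above 0, without G392E-NS replicate 2, and 0.39, with 12 of 12 above 0, without G392E-NS replicate 3. It was 0.09 without GFP replicate 3.

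The core subunits of complex IV showed this spread. For mt-Co1, which holds the site of oxygen reduction, the values were 4795, 6600 and 3107 CPM in G392E-NS, against 4123, 4003 and 3391 CPM in GFP. For mt-Co2, which takes electrons from cytochrome c, they were 1682, 2293 and 1126 CPM in G392E-NS, against 1676, 1533 and 1287 CPM in GFP. In both, the G392E-NS libraries spanned the whole GFP range. For mt-Co3 the values were 4324, 5365 and 3460 CPM in G392E-NS, against 3449, 3716 and 3235 CPM in GFP, with a difference of 0.34 on the log2 scale (SE 0.19, adjusted p = 0.324) and overlapping groups.

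The complex I subunits of the mitochondrial genome showed the same order of libraries. For mt-Nd1 the values were 1327, 1660 and 645 CPM in G392E-NS, against 1429, 1136 and 1030 CPM in GFP, and for mt-Nd2 863, 1326 and 479.8 CPM in G392E-NS, against 959, 825 and 759.9 CPM in GFP. For mt-Nd4 they were 2176, 2639 and 1121 CPM in G392E-NS, against 1869, 1831 and 1640 CPM in GFP, and for mt-Nd5 1605, 2295 and 1076 CPM in G392E-NS, against 1396, 1325 and 1144 CPM in GFP. In all 4, replicate 3 was the lowest library of the 6 and replicate 2 the highest. For mt-Nd3, the only mitochondrial gene with a log2 fold change below 0 (-0.08, SE 0.17), the values were 483, 729 and 479 CPM in G392E-NS, against 586, 613 and 592 CPM in GFP. For mt-Nd6, the only protein gene transcribed from the light strand, they were 363, 536 and 169 CPM in G392E-NS, against 326, 325 and 271 CPM in GFP. The log2 fold changes of the 6 ran between -0.08 and 0.36, and the smallest adjusted p was 0.433 (mt-Nd5).

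For mt-Cytb, the cytochrome b of complex III, the values were 2845, 3516 and 1787 CPM in G392E-NS, against 2719, 2569 and 2271 CPM in GFP. For mt-Atp6, the channel subunit of complex V, they were 3500, 4227 and 1764 CPM in G392E-NS, against 3103, 3221 and 2601 CPM in GFP. Both had overlapping groups and log2 fold changes of 0.11 (SE 0.24) and 0.09 (SE 0.29). For mt-Atp8, encoded on the same mRNA as mt-Atp6, the values were 19.1, 24.6 and 24.5 CPM in G392E-NS, against 18.4, 20.7 and 14.6 CPM in GFP, with a difference of 0.34 on the log2 scale (SE 0.16, adjusted p = 0.264). Per kilobase, mt-Atp8 averaged 99.5 CPM over all libraries and mt-Atp6 4507 CPM. In the same way mt-Nd4l, which shares its mRNA with mt-Nd4, had 1 count in all 6 libraries together. These gene pairs overlap on the same strand, by 43 of the 204 bases of mt-Atp8 and 7 of the 297 bases of mt-Nd4l. How the counting assigned their shared reads was not tested.

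**Figure D4:**
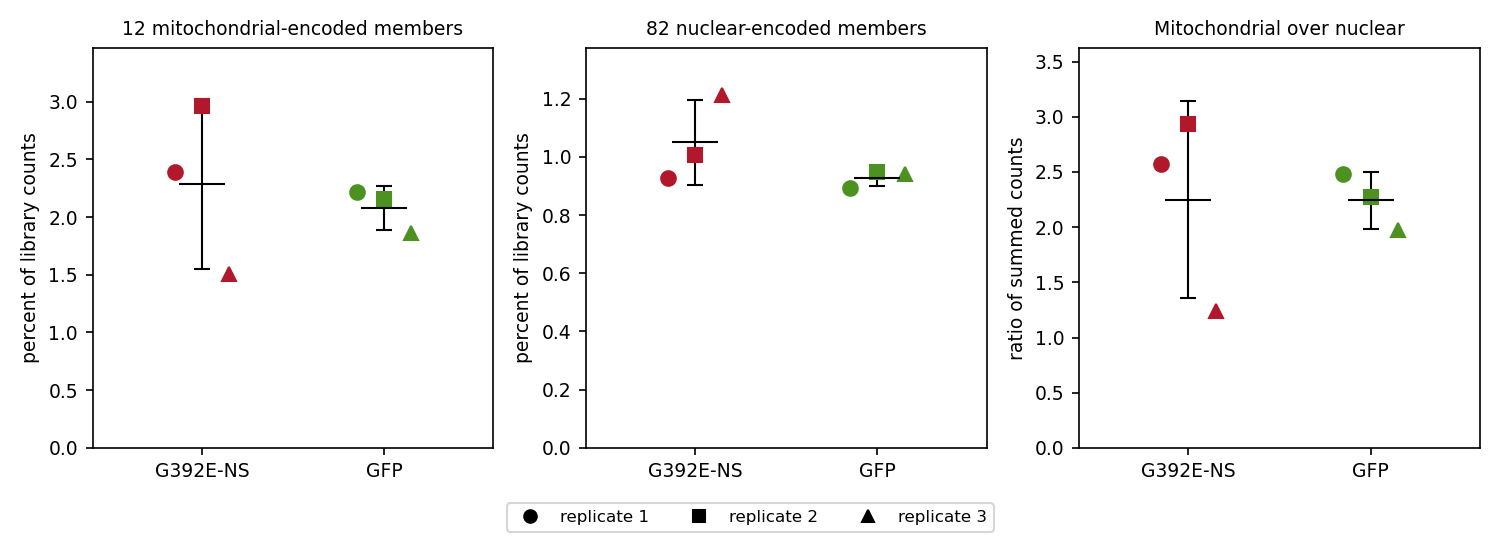
Per-library share of all counts held by the mitochondrial-encoded subunits, by the nuclear-encoded subunits, and their ratio, with the 3 G392E-NS libraries left of the 3 GFP libraries, points for libraries and bars for mean and SD. The mitochondrial share spans 1.51% to 2.96% in G392E-NS and 1.86% to 2.22% in GFP, so the groups overlap.

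The balance between the genomes differed most in G392E-NS replicate 3. The mitochondrial-encoded subunits held 2.39%, 2.96% and 1.51% of all counts in G392E-NS, against 2.22%, 2.15% and 1.86% in GFP. The means were 2.29 ± 0.733% in G392E-NS and 2.08 ± 0.191% in GFP (SD, n = 3 each), which the exact permutation test did not separate (p = 0.8). The nuclear subunits held 0.929%, 1.01% and 1.21% in G392E-NS, against 0.894%, 0.947% and 0.943% in GFP (exact permutation p = 0.3, two-sided). The ratio of mitochondrial to nuclear counts was 2.57, 2.94 and 1.24 in G392E-NS, against 2.48, 2.27 and 1.97 in GFP (exact permutation p = 1.0). Replicate 3 of G392E-NS had the lowest ratio of the 6 and replicates 1 and 2 the highest, and this order also held within complexes I, IV and V (1.32, 3.31 and 0.395 in replicate 3). In complex III replicate 3 was the lowest too, at 1.26, but GFP replicate 1 was the highest, at 2.88. The log2 difference of the ratio was -0.08, and 0.30 without G392E-NS replicate 3. The mitochondrial ribosomal RNAs, which are transcribed with the subunits, held 0.0227%, 0.0313% and 0.0126% of counts in G392E-NS, against 0.0346%, 0.0270% and 0.0318% in GFP, again lowest in G392E-NS replicate 3 (exact permutation p = 0.2).

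**Figure D5:**
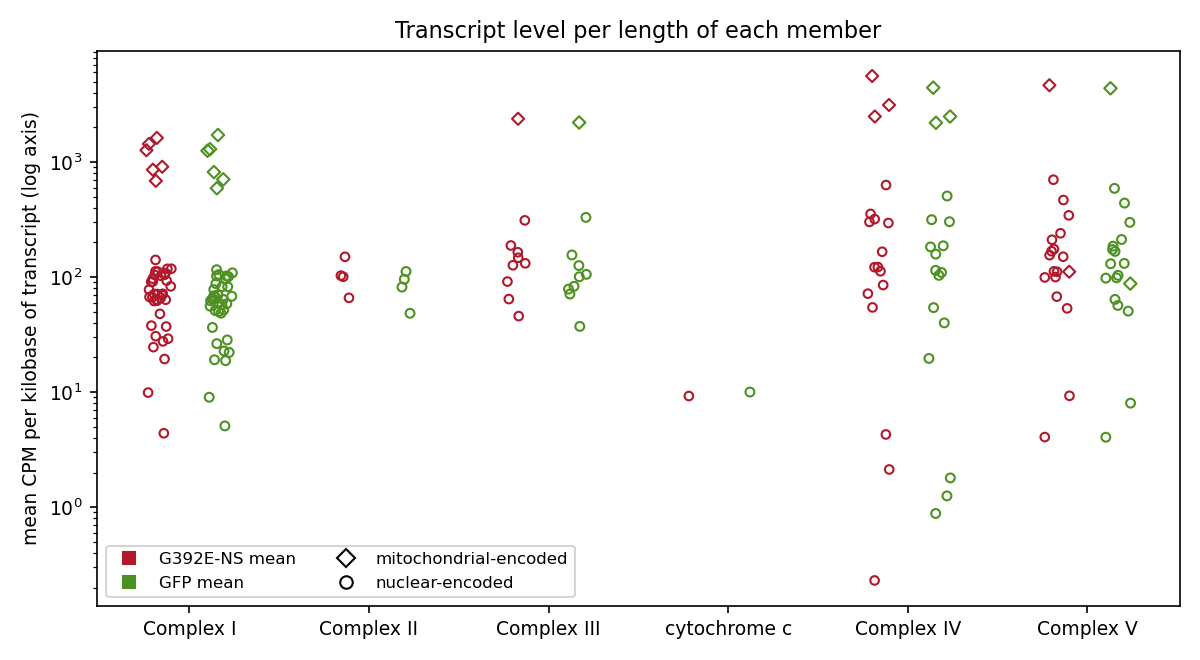
Level of each subunit in CPM per kilobase of principal transcript on a logarithmic axis, G392E-NS and GFP means, by complex and genome of origin. The mitochondrial-encoded genes other than mt-Atp8 lie between 638 and 5006 over all libraries, above every nuclear gene other than Atp5b (645.7).

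Per kilobase, mt-Co3 had the highest level of the chain (5006 CPM, mean over all 6 libraries), followed by mt-Atp6 (4507), mt-Co1 (2807), mt-Co2 (2338) and mt-Cytb (2288). The mt-Nd genes lay between 638 and 1668 CPM per kilobase. The highest nuclear level per kilobase was that of Atp5b, at 645.7 CPM, followed by Cox4i1 at 568.3 and Atp5a1, the alpha subunit of complex V, named after its values were seen, at 453.3. The lowest was that of Cox6a2, at 0.557 CPM per kilobase.

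Genes that serve the chain were taken from 6 further lists. Over all genes tested, 4.79% rose, 1.36% fell and 49.3% had a log2 fold change above 0. All 14 citric acid cycle enzymes, which feed electrons to complexes I and II, had log2 fold changes above 0 (median 0.35), and 4 of the 14 rose. Among these, the log2 fold change was 0.55 for Cs, citrate synthase (SE 0.12, adjusted p = 0.0356), 0.46 for Ogdh, of the 2-oxoglutarate dehydrogenase complex (SE 0.11, adjusted p = 0.0474), and 0.40 for Fh1, fumarase (SE 0.09, adjusted p = 0.0367). Leaving out any 1 library other than G392E-NS replicate 1 left 0 of these enzymes called, and leaving out that one left 7. Over all genes, the former fits called 196 to 457 genes higher and the latter 981, against 660 in the main analysis.

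Of 41 tested assembly factors, 1 rose, against 4.79% of all genes, a share that also applies to the lists below. It was Ndufaf7, a methyltransferase that acts on complex I during assembly (19.9, 24.8 and 22.4 CPM in G392E-NS, against 15.4, 14.5 and 14.2 CPM in GFP, log2 fold change 0.60, SE 0.12, adjusted p = 0.0293). The groups of Ndufaf7 did not overlap. The median of the list was 0.12, with 30 of 41 above 0, against 49.3% of all genes. Of 76 tested mitochondrial ribosomal protein genes, 1 rose, and 55 lay above 0 with a median of 0.09. That gene, Mrps34, had 2.87, 1.31 and 6.98 CPM in G392E-NS, against 0.346, 0.452 and 0.385 CPM in GFP, with G392E-NS replicate 3 far above the others (log2 fold change 3.18, SE 0.64, adjusted p = 0.0278). Mrps34 shares bases with Nme3 on the same strand and with Mapk8ip3 on the opposite one, so its counts are uncertain. Of 22 regulators of mitochondrial biogenesis and transcription, 1 rose, Top1mt, the mitochondrial topoisomerase (3.16, 6.07 and 4.57 CPM in G392E-NS, against 2.19, 1.46 and 1.67 CPM in GFP, log2 fold change 1.38, SE 0.30, adjusted p = 0.0361), while 8 of 22 lay above 0 and the median was -0.05. The 14 import and carrier genes had 0 calls and a median of 0.19, with 13 of 14 above 0. The 3 tested genes for uncoupling proteins and the ATP synthase inhibitor had 0 calls and a median of -0.12. No gene of the 6 lists fell, against 1.36% of all genes. Leaving out any 1 GFP library left 0 of the 7 calls in these lists, and the calls over all genes fell too, as given above.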

How the data were processed

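The deposited data are raw counts, whole numbers of reads per Ensembl gene without normalisation, for 6 libraries, 3 per group. The submitters' processing notes list GRCm38, TopHat2 2.0.12, HTSeq 0.6.1, DESeq2 1.4.5 and R 3.2.2 without roles. The annotation release and the strand setting of the counting are not stated. Groups and replicate numbers follow the labels. No pair of libraries was a duplicate (chi-square per degree of freedom of at least 8.02).

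Symbols, positions and principal transcript lengths are from GENCODE release M21, promoters from RefSeq. The length in the removed trends is that of all exons of a gene merged, from the same GENCODE release. Tests used edgeR 4.0.16 (R 4.3.3): filterByExpr kept 13775 genes with 99.9% of counts, TMM factors set the scaling, and the quasi-likelihood F test compared G392E-NS with GFP without covariates. P-values were adjusted by Benjamini-Hochberg over all genes tested, with a threshold of 0.05. Differences on the log2 scale are fitted log2 fold changes. Per-library log2 differences use a pseudocount of 0.5 CPM. Shares were compared by exact two-sided permutation tests, which cannot go below p = 0.1 with 3 against 3. The Wilson 95% interval of a share reaches at most 0.007 percentage points to either side and covers counting error only. The common biological coefficient of variation was 0.159.

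The members and gene lists were chosen with earlier results of these data known. The text names all mitochondrial genes, called nuclear genes, the smallest p and the highest nuclear level per length in each complex, paired isoforms, and up to 4 called genes per list. Some genes that these rules pick are not reported here. Cell type markers are named where called or at 0. Any other gene whose differences or levels are given is marked in the text as picked with its values known. The alternatives changed the scaling (RLE, upper quartile, total count, or without mitochondrial genes), the tool (DESeq2 1.42.0, limma-voom of limma 3.58.1), the filter (none, or 1 CPM in at least 3 libraries) or the design (a block for the replicate number), took out length and GC trends (known for 99.0% of genes), kept members with at least 300 counts, or left out each library. The test was tried on simulated counts.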

Additional observations from a re-analysis of the deposited data

How the results depend on the processing

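The 10 subunits called higher became 4 with total-count scaling, 3 with limma-voom, 5 with the replicate block and 1 to 14 when a library was left out, and 1 subunit (Cox6a2) was called lower with no low-count filter. Complex IV calls went to 2 with total-count scaling, 1 with limma-voom and 1 to 5 on leaving out a library. Over all genes, the 660 higher calls became 1084 with DESeq2, 1205 with no filter and 196 to 981 without a library, and the 187 lower calls (1.36% of genes tested) became 366 (2.66%) with DESeq2, 374 with no filter, 400 (2.90%) with length and GC trends removed, and 0.324% to 2.81% of genes tested without a library. List calls (7 higher) became 13 with DESeq2, 4 with limma-voom and 0 to 13 without a library, the lower ones 1 with length and GC trends removed and 0 to 1 without a library, and citric acid cycle calls 2 with total-count scaling and 0 to 7 without a library. The complex III nuclear median ran between 0.013 and 0.47 without a library. The causes were not tested.

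Signs turned for both mitochondrial and nuclear genes. Among the genes named by rule, they turned most often for Atp5g1 (10 of 16 alternatives) and mt-Nd1 (9 of 16). The log2 ratio of mitochondrial to nuclear counts (-0.08) was 0.053 with length and GC trends removed and -0.32 to 0.30 without a library, and the mitochondrial share (0.09) ran between -0.13 and 0.36. With total-count scaling, Atp5g1 had a log2 fold change of -0.058, Cox7a2 -0.029, mt-Nd1 -0.054 and mt-Nd2 -0.0022. With limma-voom, Atp5g1 had -0.0048, mt-Atp6 -0.029, mt-Nd1 -0.11 and mt-Nd2 -0.074. With length and GC trends removed, Atp5g1 had -0.050, Atp5g2 -0.0099, Cox6b1 -0.0066, Cox7a2 -0.13 and mt-Nd1 -0.0053. With no filter, Atp5g1 had -0.015 and mt-Nd1 -0.0023, and Atp5g1 had -0.0016 with DESeq2 and -9.47e-05 with RLE scaling. Without a library, the range was -0.053 to 0.092 for Atp5g1, -0.039 to 0.095 for Cox7a2, -0.17 to 0.036 for Ndufa4, -0.17 to 0.38 for mt-Atp6, -0.089 to 0.41 for mt-Co2, -0.12 to 0.34 for mt-Cytb, -0.28 to 0.32 for mt-Nd1, -0.33 to 0.37 for mt-Nd2, -0.31 to 0.021 for mt-Nd3, -0.11 to 0.44 for mt-Nd4 and -0.20 to 0.55 for mt-Nd6. No called subunit changed sign in any of its 16 alternatives.

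Whether the replicate numbers pair the libraries is not stated in the labels. Deviations of same-numbered libraries correlated at 0.03, -0.38 and -0.25, and not every library correlated best with its own number. With 3 libraries per group, each centred on its group mean, these correlations cannot decide it. With the number as a replicate block, 5 subunits were called higher (0 lower), 217 genes higher and 50 (0.363%) lower over all genes tested, 0 list genes and 0 citric acid cycle enzymes, and mt-Nd1 had a log2 fold change of -0.079 and mt-Nd2 of -0.045. Depth limits the scarce isoforms most: Cox6a2, Cox7a1 and Cox6b2 rest on 45, 95 and 200 counts in all.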
